A study of Arabidopsis lyrata and Arabidopsis thaliana with 9 samples.

Results

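Aliphatic glucosinolates are sulfur-rich defence compounds that plants of the cabbage family make from methionine. Their synthesis was described here through 10 genes given by locus: the regulators MYB28 and MYB29, the chain-elongation genes BCAT4, MAM1 and MAM3, the core genes CYP79F1, CYP79F2, CYP83A1 and SUR1, and the side-chain gene FMOGS-OX1. They were chosen by locus with no cutoff on level, though earlier results of these data were known when they were chosen. All 10 were found among the 27176 gene models listed for A. thaliana. The RNA came from inflorescences of wild-type Col-0 plants after bolting, grown in a greenhouse under long days, with 3 directional RNA-seq libraries that the series calls biological replicates. Nothing in the labels says whether the libraries came from separate plants, and the spread between them may be partly technical. The series also holds libraries of A. lyrata leaves and inflorescences, whose genes carry numbers without a locus and in which the 10 genes were therefore not analysed here. With 1 tissue and 1 genotype the design gives no contrast for these genes, so their levels are a description.

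Synthesis runs in 3 stages. In the first, methionine loses its amino group and its side chain is lengthened by repeated cycles. In the second, cytochrome P450 enzymes of the CYP79 and CYP83 families turn the amino acid into an aldoxime and an activated intermediate, from which SUR1, sugar transfer and sulfation build the core. In the third, the side chain is modified, for example by S-oxygenation. MYB28, MYB29 and their relative MYB76 are known to activate the genes of the pathway, and a parallel pathway with its own CYP79, CYP83 and MYB genes makes indole glucosinolates from tryptophan. Glucosinolates are known to be plentiful in flowers and other reproductive organs, where transporters also bring them in from other tissues.

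The regions before 3 of the 10 genes are shown because a motif search of the 250 bases before the annotated start of each counted model found matches only there among the 10. The G-box CACGTG, bound by MYC factors that act in this pathway, matched 2 of the 10 regions, those of CYP83A1 and SUR1, and 6.74% of the 26660 regions of the same length searched over all models. The AC element ACCTACC, a MYB-type motif, matched 2 of the 10, those of CYP83A1 and CYP79F2, and 1.19% of all regions. The related AC element ACCAACC and the CArG box, the motif of MADS-box factors, matched none of the 10, against 2.79% and 2.54% of all regions. Both strands were searched, no match overlapped another, and a match of letters is not a binding site. In the RefSeq TAIR10.1 sequences that follow, read from 5′ to 3′ on the gene's strand and ending at the base before the start, capitals mark the matches. The region of CYP83A1 is chr4:7992430-7992679 on the minus strand, that of SUR1 is chr2:8880441-8880690 on the minus strand, and that of CYP79F2 is chr1:5604794-5605043 on the plus strand.
CYP83A1: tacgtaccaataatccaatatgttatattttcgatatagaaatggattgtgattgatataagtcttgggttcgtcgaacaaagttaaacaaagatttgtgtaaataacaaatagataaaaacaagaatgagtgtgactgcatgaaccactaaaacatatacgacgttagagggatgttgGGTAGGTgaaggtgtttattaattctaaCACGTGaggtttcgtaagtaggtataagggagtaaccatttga
SUR1: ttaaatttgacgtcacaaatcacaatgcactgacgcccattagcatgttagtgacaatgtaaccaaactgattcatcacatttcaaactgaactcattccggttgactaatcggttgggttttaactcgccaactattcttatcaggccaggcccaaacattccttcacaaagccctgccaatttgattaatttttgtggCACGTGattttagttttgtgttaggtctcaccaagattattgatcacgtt
CYP79F2: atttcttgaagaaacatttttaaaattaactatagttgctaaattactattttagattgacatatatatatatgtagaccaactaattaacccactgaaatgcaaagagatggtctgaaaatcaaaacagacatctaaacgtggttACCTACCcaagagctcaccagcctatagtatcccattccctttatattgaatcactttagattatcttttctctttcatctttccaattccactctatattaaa
In CYP83A1 the G-box began 43 bases before the start and the AC element 71 bases before it, read on the opposite strand. The G-box of SUR1 began 50 bases before the start and the AC element of CYP79F2 104 bases before it.

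The libraries held 6263918, 14004158 and 6330211 counts for replicates 1, 2 and 3, called libraries 1, 2 and 3 here. Levels are given as CPM, the counts of a gene divided by the library total and scaled to one common size, and intervals are exact 95% Poisson intervals that cover counting error only. All 5 floral identity genes checked (AP1, AP3, PI, AG and SEP3) were present, with a summed level of 938 to 961 CPM over the libraries. Of 3 seed storage genes, CRU3 and SESA1 had no counts and the summed level was 0.214 to 0.639 CPM. Of 3 root genes, EXPA7 and EXPA18 had no counts, and WER had 1, 1 and 0. The floral label was therefore matched by its markers.

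Together the 10 genes held 119 CPM in library 1, 179 CPM in library 2 and 184 CPM in library 3, a mean of 161 ± 36.0 CPM (SD, n = 3). The level was uneven along the pathway. SUR1, CYP83A1 and MYB28 made up 84.9% ± 2.94 of the sum, 4 genes stood at 10 CPM or more on average, and CYP79F2 and MAM3 stood under 1 CPM. Library 1 had the lowest sum, and the same was seen in most of the single genes.

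**Figure D1:**
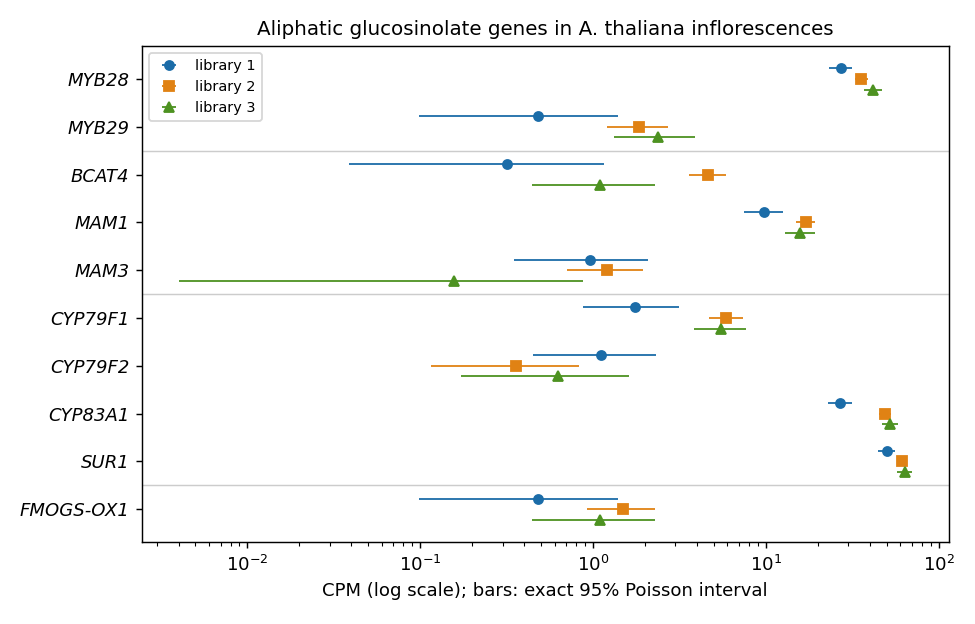
Level of each of the 10 genes in each A. thaliana inflorescence library in CPM on a log axis, with exact 95% Poisson intervals as bars; grey lines part the regulators, chain elongation, core structure and side-chain modification. Library 1 (circles) is the lowest of the 3 for 8 of the 10 genes, and MAM3 and CYP79F2 are the exceptions.

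Of the pair of regulators, MYB28 carried nearly all the counts. MYB28 (AT5G61420), on chromosome 5 at 24689069 to 24691187 of TAIR10.1 on the minus strand and counted as a model with 3 exons, stood at 27.3, 35.8 and 41.7 CPM in libraries 1, 2 and 3 (34.9 ± 7.24, SD, n = 3). That mean was above the mean of 75.4% of all listed models. MYB29 (AT5G07690), its close relative on chromosome 5 at 2446669 to 2448584 on the plus strand, stood at 0.479, 1.86 and 2.37 CPM (1.57 ± 0.978), from 3, 26 and 15 counts. Library 1 was the lowest for both genes. The interval of library 1 lay below those of libraries 2 and 3 for MYB28, while for MYB29 it overlapped both others. Scaled by exon length, MYB28 was 52.0, 17.6 and 16.0 times as high as MYB29 in libraries 1, 2 and 3, and the first of these ratios rests on 3 counts of MYB29. Their coding sequences were 77.8% identical with no shared run longer than 29 bases. MYB76 (AT5G07700), the other activator of this group, lies 1442 bases from MYB29 and had no counts in a pooled total of 26598287, a limit of 0.113 CPM if 3 counts over the group are allowed.

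In chain elongation, MAM1 was the one gene of the 3 above 10 CPM. MAM1 (AT5G23010), a methylthioalkylmalate synthase that condenses the side chain with acetyl-CoA in the early cycles, lies on chromosome 5 at 7703092 to 7706896 on the plus strand with 10 exons. It stood at 9.74, 17.1 and 15.8 CPM (14.2 ± 3.92, SD, n = 3). Libraries 2 and 3 were alike within their intervals, and library 1 lay below both. MAM3 (AT5G23020), the relative that also serves long side chains, lies on chromosome 5 at 7718118 to 7721866 and stood at 0.958, 1.21 and 0.158 CPM from 6, 17 and 1 counts, with overlapping intervals in all 3 libraries. MAM3 begins 11221 bases beyond MAM1 on the same strand, with no annotated gene lying wholly between them. Their coding sequences were 83.8% identical and shared no run longer than 30 bases.

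BCAT4 differed most between libraries among the 10 genes. BCAT4 (AT3G19710), the aminotransferase that starts the pathway by removing the amino group of methionine, lies on chromosome 3 at 6846969 to 6849582 on the minus strand with 9 exons. It had 2, 65 and 7 counts, or 0.319, 4.64 and 1.11 CPM (2.02 ± 2.302, SD, n = 3). Library 2 stood apart, since its interval of 3.58 to 5.92 CPM lay above the upper bounds of libraries 1 (1.15 CPM) and 3 (2.28 CPM). Without library 2 the mean was 0.713 CPM. A gene on the opposite strand, AT3G19700, overlaps BCAT4 and had no counts in any of the 3 libraries.

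By mean level, the core structure genes held both the highest and the lowest of the 10, SUR1 and CYP79F2. MAM3 stood below CYP79F2 in libraries 1 and 3, so which gene was lowest is not settled. CYP79F1 (AT1G16410), which makes aldoximes from methionine derivatives of all chain lengths, stood at 1.76, 5.93 and 5.53 CPM (4.40 ± 2.302, SD, n = 3). CYP79F2 (AT1G16400), which is known to act on the long-chain derivatives, stood at 1.12, 0.357 and 0.632 CPM from 7, 5 and 4 counts. Library 1 was thus the lowest for CYP79F1 and the highest for CYP79F2, but the intervals of CYP79F2 overlapped in all 3 libraries. CYP83A1 (AT4G13770), which oxidises the aldoximes, stood at 26.98, 49.1 and 52.3 CPM (42.8 ± 13.8). Its interval in library 1, 23.1 to 31.4 CPM, lay well below those of libraries 2 and 3, which overlapped. SUR1 (AT2G20610), the C-S lyase that aliphatic and indole synthesis share, was the most abundant of the 10 at 50.1, 61.1 and 63.7 CPM (58.3 ± 7.19), and library 1 was again the lowest. CYP83A1 lies on chromosome 4 at 7990429 to 7992429 and SUR1 on chromosome 2 at 8877887 to 8880440, both on the minus strand.

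The neighbouring CYP79F genes are alike enough that reads could be shared, and the sequences that follow show where they can and cannot be told apart. CYP79F2, at 5605044 to 5607498 on chromosome 1, ends 1183 bases before CYP79F1, at 5608682 to 5612064, on the same strand. Their coding sequences were identical at 91.9% of 1605 bases aligned without a gap. The longest identical run was 100 bases, and 54 stretches of 50 bases occurred in both. In the first pair of lines, the 90 bases most alike, no base differed (coding bases 994 to 1083 of CYP79F1 and 991 to 1080 of CYP79F2). In the second pair, the 90 bases least alike, 20 differed and are in capitals (coding bases 719 to 808 and 716 to 805).
CYP79F1: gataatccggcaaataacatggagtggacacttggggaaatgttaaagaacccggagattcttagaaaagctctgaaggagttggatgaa
CYP79F2: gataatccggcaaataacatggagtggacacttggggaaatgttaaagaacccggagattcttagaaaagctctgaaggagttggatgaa
CYP79F1: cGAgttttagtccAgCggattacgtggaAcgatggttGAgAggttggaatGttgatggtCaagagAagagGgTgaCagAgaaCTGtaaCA
CYP79F2: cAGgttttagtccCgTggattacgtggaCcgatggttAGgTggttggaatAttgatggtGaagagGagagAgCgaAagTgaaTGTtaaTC
How the authors treated reads that match both genes is not given in the sources used here, so the split between them is less certain than their sum. Per kilobase of exon, CYP79F1 was 1.16, 12.2 and 6.44 times as high as CYP79F2 in libraries 1, 2 and 3.

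FMOGS-OX1 (AT1G65860), a flavin monooxygenase that oxidises the sulfur of the finished side chain, was near the lower end. It had 3, 21 and 7 counts, or 0.479, 1.5 and 1.11 CPM (1.03 ± 0.515, SD, n = 3), with overlapping intervals in all 3 libraries. It lies on chromosome 1 at 24498954 to 24502776 on the minus strand and was counted as a model with 7 exons.

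Levels of different genes can be compared only after scaling by length, here as CPM per kilobase of exon of the counted model. On that scale SUR1 was first at 32.5 ± 4.01, then CYP83A1 at 22.4 ± 7.21, MYB28 at 18.4 ± 3.81 and MAM1 at 8.21 ± 2.27 (SD, n = 3). After them came CYP79F1 at 1.61 ± 0.839, BCAT4 at 1.39 ± 1.59, MYB29 at 0.906 ± 0.565, FMOGS-OX1 at 0.593 ± 0.297, MAM3 at 0.425 ± 0.301 and CYP79F2 at 0.348 ± 0.191. The ranges over the 3 libraries were apart for SUR1 over CYP83A1, MYB28 over MAM1 and MAM1 over CYP79F1. They overlapped for CYP83A1 and MYB28 and for every pair of neighbours from CYP79F1 down, so those neighbours did not differ beyond their spread. Within libraries, MYB29 was above FMOGS-OX1 in 3 of 3, but in library 1 both had 3 counts and differed only through their exon lengths. The other overlapping neighbours kept their order in 1 or 2 of 3. A transcription factor, MYB28, thus stood level with the abundant enzyme CYP83A1. CYP83A1 was 22.1, 11.9 and 13.6 times as high as CYP79F1, which shares the step before it with CYP79F2. CYP79F1 and CYP79F2 together stood at 1.19, 2.34 and 2.33 in libraries 1, 2 and 3, and CYP83A1 at 14.1, 25.7 and 27.4. With coding length in place of exon length CYP83A1 and MYB28 changed places, at 28.3 and 31.7, and the other 8 kept their rank. The annotated exons of CYP79F1 sum to 2743 bases against 1617 coding bases, so its level moved from 1.61 to 2.72.

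**Figure D2:**
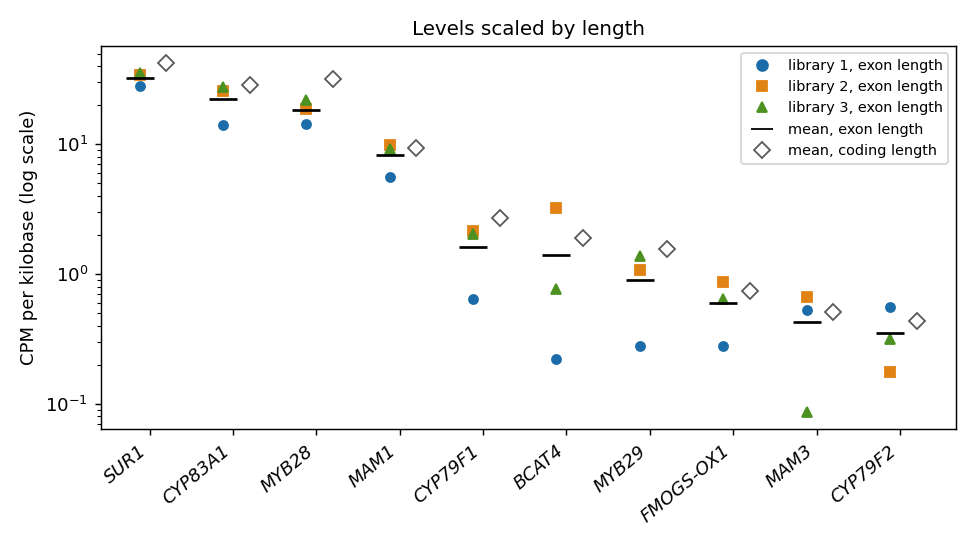
CPM per kilobase on a log axis for the 10 genes in order of mean level, with 1 filled symbol per library and a bar for the mean by exon length; open diamonds are means by coding length. SUR1, CYP83A1, MYB28 and MAM1 stand above the other 6, and MYB28 passes CYP83A1 when coding length is used.

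Most of the 10 genes were lower in library 1 than in the other libraries. On the scale of log2(CPM + 0.5), 6 of the 8 genes that averaged 1 CPM or more were lower in library 1 than in library 2 by 1.5-fold or more, against 2.51% of 18654 models at that level, and none was higher, against 2.22%. They were BCAT4, MAM1, CYP79F1, CYP83A1, FMOGS-OX1 and MYB29. Of these, BCAT4, FMOGS-OX1 and MYB29 were below 1 CPM in library 1, at 0.319, 0.479 and 0.479 CPM. They reached the minimum mean only through libraries 2 and 3, where they were higher. MAM3 and CYP79F2, which the minimum left out, were not lowest in library 1. Against library 3, 7 of the 8 were lower in library 1 by 1.5-fold or more, against 2.46% of models, and none was higher, against 5.28%. SUR1 was the one of the 8 past that fold in neither comparison. Over all 10 genes, with no minimum level, 6 were lower than in library 2 and 7 lower than in library 3, against 3.95% and 4.0% of 22665 models. In each comparison 1 was higher, CYP79F2 against library 2 and MAM3 against library 3, where 3.57% and 6.88% of models were. The median log2 difference of the 10 was -0.81 for library 1 minus library 2 and -0.69 for library 1 minus library 3, against 0.01 and 0.00 over all models with at least 1 CPM. These are replicates of 1 group, so the differences compare libraries and not conditions.

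The sizes differed among genes. CYP83A1 was 1.82-fold higher in library 2 and 1.94-fold higher in library 3 than in library 1, and MAM1 1.75-fold and 1.62-fold. CYP79F1 was 3.38-fold and 3.15-fold higher, and MYB28 only 1.31-fold and 1.53-fold. SUR1 had the smallest ratios of the 8 genes, at 1.22-fold and 1.27-fold. Intervals of libraries 1 and 2 were apart for 6 of the 10 genes (BCAT4, MAM1, CYP79F1, CYP83A1, SUR1 and MYB28), and those of libraries 1 and 3 for the same genes without BCAT4. The same count was not made over all models. Intervals narrow as counts rise, and those of SUR1 were apart at only 1.22-fold, so these counts of genes have no background to be read against. Libraries 2 and 3 differed less. Only BCAT4 was past 1.5-fold between them among the 8 genes, higher in library 2, against 5.02% of models, none was lower in library 2, against 1.74%, and the median of the 10 was 0.02.

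A count added after the values were seen restates the low levels in library 1 in another form and is not separate support for them. All 8 genes at 1 CPM or more had their lowest level in library 1, against 32.7% of 18654 models. With no minimum level it was 8 of 10, against 30.9% of 22665 models. Of the 5 floral markers, 4 were also lowest in library 1. Their sum moved little, at 938, 955 and 961 CPM in libraries 1, 2 and 3. Libraries 1 and 3 had nearly the same total count. Library 2 was also thinned at random to the total of library 1. The count of genes lower in library 1 than in library 2 was then again 6 of 8, against 2.82% of 18659 models. No label records a harvest time or batch for the libraries. The thinned count is given as a description only. Whether depth, harvest time or batch had a part in the difference between libraries was not tested.

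**Figure D3:**
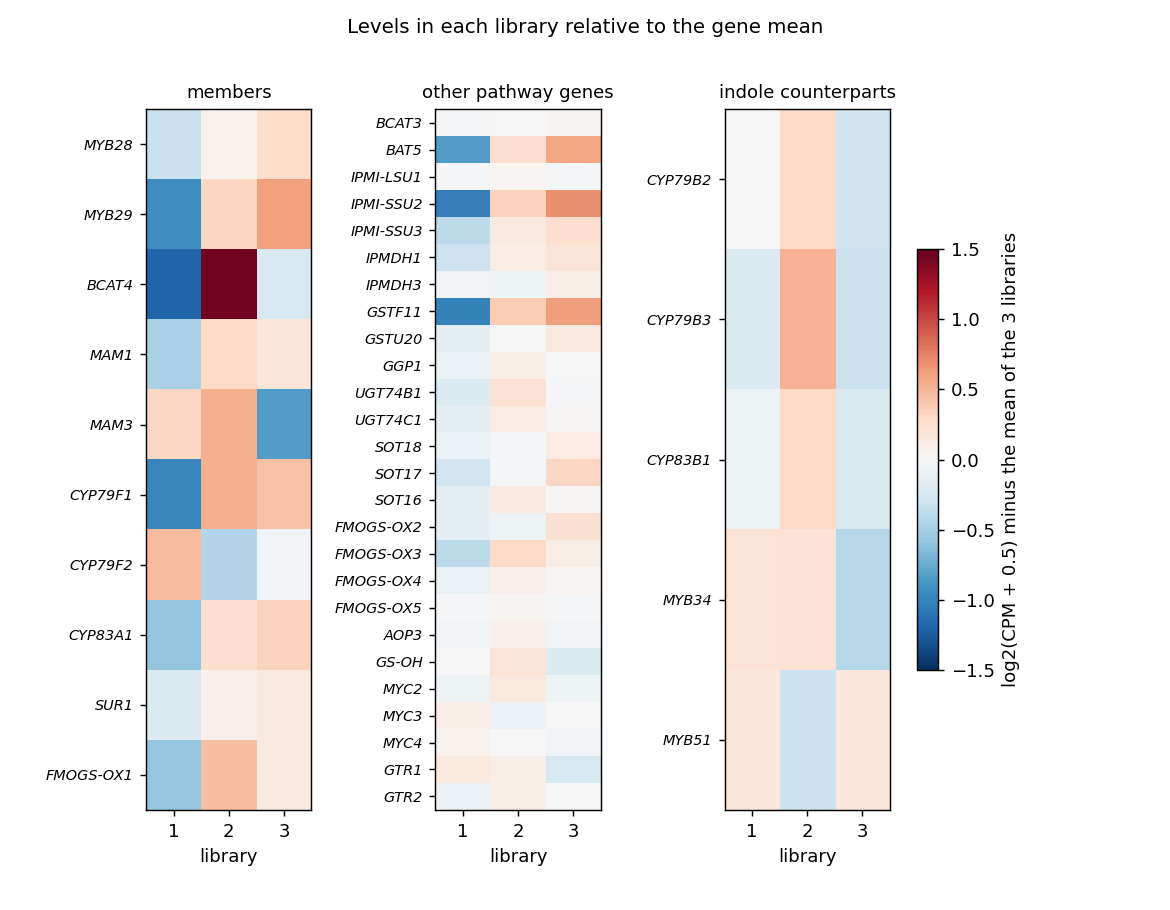
Each row is a gene and each column a library; colour gives log2(CPM + 0.5) minus the gene's mean over the 3 libraries, from -1.5 (blue) to 1.5 (red), for the 10 members, the other pathway genes with counts and the indole counterparts with counts. Library 1 is blue for most members and is the lowest for 19 of the 27 other pathway genes analysed, among them BAT5, IPMI-SSU2 and GSTF11. None of the indole genes has its lowest value there, against 30.9% of models with a count.

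The 10 genes also varied more than most models of similar level. The SD of log2(CPM + 0.5) over the libraries was above that of 90% or more of the models with a mean within 2-fold for 8 of the 10. For CYP83A1 the SD was 0.52, at percentile 99.7 of 6869 such models, whose median SD was 0.09. BCAT4 had an SD of 1.34 (percentile 99.2), MYB28 0.31 (97.9), MAM1 0.42 (97.7) and CYP79F1 0.85 (96.8). MYB29 was at percentile 94.7, SUR1 at 92.9 and MAM3 at 92.2. FMOGS-OX1 and CYP79F2, among the genes with fewest counts, were at 75.99 and 67.2. The floral markers lay at percentiles 16.6 to 42.5 of their own neighbours. Among related genes, 5 of the 27 other pathway genes analysed and 2 of the 6 indole genes were also above percentile 90. By the definition of a percentile, about 10% of models lie there, and MYB76 and MYB122, without counts, could not.

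**Figure D4:**
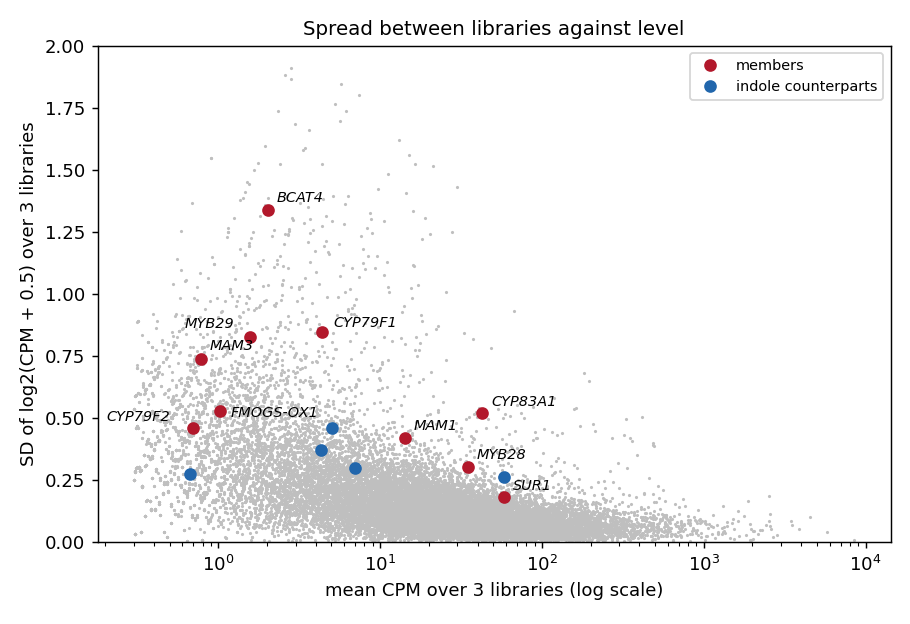
SD of log2(CPM + 0.5) over the 3 libraries against mean CPM on a log axis, for all models averaging 0.3 CPM or more (grey; 3 models lie above the top of the axis at 2), the 10 members (red, named) and the indole counterparts (blue). Most members lie near the upper edge of the grey cloud, with CYP83A1 at an SD of 0.52 and SUR1 at 0.18.

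The other genes of the pathway were taken as a list of 28. AOP2 was not analysed here, and 19 of the remaining 27 stood at 10 CPM or more. In library 1, 4 of the 27 were lower than in library 2 by 1.5-fold or more, against 3.95% of the 22665 models with a count, and 5 lower than in library 3, against 4.0% of them. None was higher in either comparison, against 3.57% and 6.88%. Of the 27, 19 had their lowest level in library 1, against 30.9% of the 22665 models. In chain elongation, BAT5, the plastid transporter of oxo acids, stood at 2.39, 5.64 and 7.27 CPM. The isopropylmalate isomerase small subunits IPMI-SSU2 and IPMI-SSU3 stood at 2.08, 6.21 and 8.06 CPM and at 6.07, 8.997 and 9.79 CPM. These had their lowest level in library 1, as did MAM1 and BCAT4 of the same stage and 32.7% of models at 1 CPM or more. MAM3, also a member of that stage, was lowest in library 3. The intervals of IPMI-SSU3 overlapped in all 3 libraries.

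Genes of chain elongation that leucine synthesis also uses were steadier than MAM1 and BCAT4. The isomerase large subunit IPMI-LSU1 stood at 214, 221 and 214 CPM, the aminotransferase BCAT3 at 96.1, 97.5 and 101 CPM, and the dehydrogenase IPMDH3 at 60.3, 59.4 and 66.3 CPM. IPMDH1, the dehydrogenase of the glucosinolate branch, lay between at 8.94, 12.2 and 12.95 CPM, and a gene overlapping it on the opposite strand had 357, 700 and 359 counts. The contrast between shared and dedicated genes was drawn after the values were seen and has no test.

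Beside the core members, GSTF11, a glutathione transferase linked to aliphatic synthesis, stood at 0.319, 1.64 and 2.05 CPM, from 2, 23 and 13 counts. Its relative GSTU20 stood at 152, 167 and 183 CPM, and per kilobase of exon at 146 ± 13.4 against 1.43 ± 0.970 for GSTF11 (SD, n = 3). The glucosyltransferases UGT74B1 and UGT74C1 stood at 43.3 ± 6.39 and 57.0 ± 4.83 CPM (SD, n = 3), and the sulfotransferases SOT16, SOT17 and SOT18 at 34.7 ± 3.47, 4.29 ± 1.02 and 23.4 ± 1.82 CPM. GGP1, the peptidase that trims the glutathione conjugate, stood at 54.0 ± 3.93 CPM. All 8 of these core genes were lowest in library 1, as were 32.7% of models at 1 CPM or more. GSTF11 and SOT17 were the ones lower there than in library 3 by 1.5-fold or more, against 2.46% of those models, and GSTF11 alone was lower than in library 2, against 2.51%. UGT74C1 and GSTF11 overlap genes on the opposite strand.

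In side-chain modification, FMOGS-OX1 was the lowest of the 5 S-oxygenase genes. Per kilobase of exon, FMOGS-OX2 stood at 16.9 ± 2.49, FMOGS-OX5 at 9.53 ± 0.235, FMOGS-OX4 at 6.63 ± 0.464 and FMOGS-OX3 at 3.91 ± 0.971, against 0.593 ± 0.297 for FMOGS-OX1 (SD, n = 3). Each of the 4 was above FMOGS-OX1 in every library. FMOGS-OX3 was lower in library 1 than in library 2 by 1.5-fold or more, as FMOGS-OX1 was, at 5.43 and 9.07 CPM. AOP3 had 1, 3 and 1 counts, and GS-OH, the enzyme of side-chain hydroxylation, stood at 15.1 ± 2.20 CPM.

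Matching steps of aliphatic and indole synthesis were compared within each library, as summed CPM per kilobase of exon. At the aldoxime-forming step, CYP79F1 and CYP79F2 together stood at 1.19, 2.34 and 2.33 in libraries 1, 2 and 3, and the indole genes CYP79B2 and CYP79B3 at 5.53, 7.95 and 4.68. The aliphatic sum was lower in 3 of 3 libraries, with a mean log2 difference of -1.66 ± 0.61 (SD, n = 3; exact two-sided permutation p = 0.25, the smallest that 3 pairs allow; adjusted p = 0.375 over 3 steps). At the next step, CYP83A1 stood at 14.1, 25.7 and 27.4 and CYP83B1 at 28.7, 37.2 and 26.0. CYP83A1 was the higher in library 3 only, and the mean log2 difference was -0.50 ± 0.55 (exact permutation p = 0.5, adjusted p = 0.5).

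The order was the other way for the regulators. MYB28 and MYB29 together stood at 14.7, 19.9 and 23.3 CPM per kilobase, and the indole regulators MYB34, MYB51 and MYB122 together at 3.23, 3.05 and 2.13, with no counts of MYB122. The aliphatic sum was higher in 3 of 3 libraries by a mean log2 difference of 2.78 ± 0.64 (exact permutation p = 0.25, adjusted p = 0.375). At each of the 3 steps the log2 difference, aliphatic minus indole, was lowest in library 1 and highest in library 3. None of the 6 indole genes had its lowest level in library 1, against 30.9% of the 22665 models with a count. MYB122, without counts, could not be lowest in any library, and MYB51 had only 5, 6 and 5 counts. CYP79B2, CYP79B3, CYP83B1 and MYB34 were lowest in library 3. The share of all models lowest there was not counted, so this pattern has no background to be read against. Of the 6, 3 were higher in library 2 than in library 3 by 1.5-fold or more, against 6.29% of models with a count. The reverse held for 2.79% of those models. Between libraries 1 and 3, that fold was passed by 6.88% with library 3 the lower and by 4.0% with library 1 the lower.

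**Figure D5:**
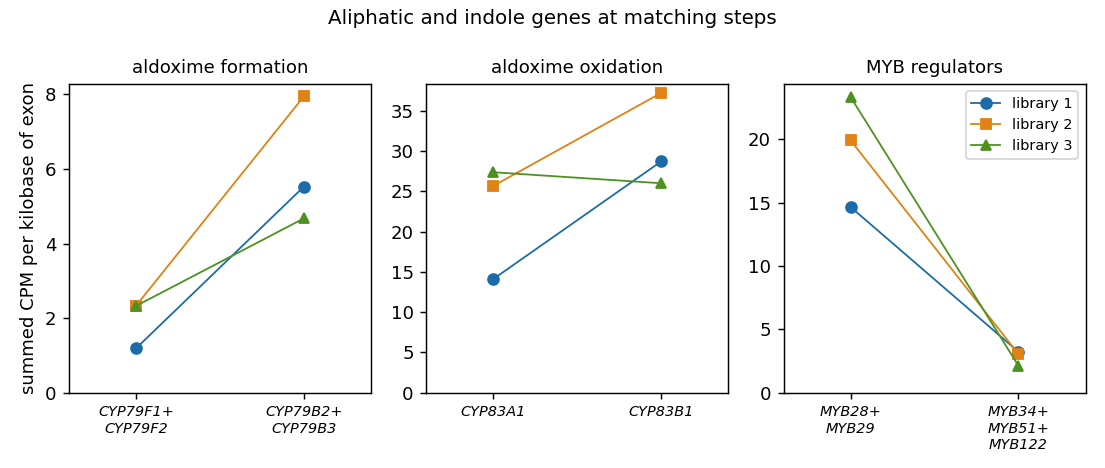
Summed CPM per kilobase of exon of the aliphatic genes (left) and indole genes (right) at 3 matching steps, with 1 line per library. Aliphatic genes are lower at aldoxime formation in all 3 libraries and higher among the MYB regulators in all 3, and the lines cross at aldoxime oxidation.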

How the data were processed

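Raw counts per gene model in 3 A. thaliana inflorescence libraries were used as the authors deposited them. The values are whole numbers with a different total in each library. TAIR10 is named in the submitters' processing notes. The aligner, the counting tool and the use of strand are not stated in the labels or files. Of 27176 models, 26665 matched a model of the RefSeq TAIR10.1 annotation, which gave positions, lengths and sequences. Its exons can differ from those the authors counted on. The 10 genes and all gene lists were chosen with earlier results of these data known, and every list gene may be named.

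CPM used raw library totals, intervals were exact 95% Poisson, and folds between libraries used a pseudocount of 0.5 CPM and a minimum mean of 1 CPM. The step comparison used an exact paired sign-flip permutation test with Benjamini-Hochberg adjustment. Scaling alternatives came from edgeR 4.0.16 and DESeq2 1.42.0 in R 4.3.3. Coding sequences were aligned with Biopython 1.88, in Python 3.11.15. Tables and figures used pandas 2.3.3, numpy 2.4.6, matplotlib 3.10.9 and scipy 1.17.1. The code for folds and spread was tested on simulated data.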

Additional observations from a re-analysis of the deposited data

How the results depend on the processing

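The summed level of the 10 genes, 161 CPM, was 161 CPM under TMM and DESeq2 size factors and ranged from 149 to 181 CPM when each library was left out. No model held over 1% of counts, so leaving such models out had no effect. With a minimum mean of 5 CPM only 4 of the 10 genes were tested, of which 2 were lower in library 1 than in library 2, 3 were lower in library 1 than in library 3, and 4 had their lowest level in library 1, against 0.845%, 0.929% and 33.2% of 15392 models. The count lower in library 1 than in library 3, 7 in the main setting, was 4 with a pseudocount of 2 CPM and 2 when 2-fold was asked for, while the share of all models went from 2.46% to 0.901% and 0.466%. Under TMM scaling both counts of lower genes were as reported. The log2 differences between aliphatic and indole steps kept their sign under the alternatives tried and, over the libraries left out, ranged from -1.99 to -1.39 at aldoxime formation, from -0.78 to -0.23 at aldoxime oxidation and from 2.44 to 3.08 for the regulators.

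No paired analysis was possible because the groups that share replicate numbers hold genes of different identifier systems, and the 10 genes were measured in 1 group. Depth limits BCAT4, MYB29, MAM3, CYP79F2 and FMOGS-OX1, each with fewer than 10 counts in at least 1 library. Thinning library 2 and the count of genes lowest in library 1 were added after the data were seen.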

Other observations

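The transcription factors MYC2, MYC3 and MYC4, which act with the MYB activators of glucosinolate genes, stood at 61.4 ± 5.57, 96.5 ± 6.23 and 36.4 ± 1.23 CPM (SD, n = 3), and none was past 1.5-fold between any pair of libraries. The glucosinolate transporters GTR1 and GTR2 stood at 59.6 ± 8.44 and 45.2 ± 3.03 CPM. GTR1 was lowest in library 3, at 65.5, 63.4 and 49.9 CPM in libraries 1, 2 and 3, and its interval there lay apart from both others. Its SD on the log2 scale was at percentile 95.7 of models of similar level, and that of MYC2 at 78.3. MYC2, GTR1 and GTR2 each overlap a gene of the other strand, which makes their levels less sure.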
